A study of Mus musculus with 6 samples.

Results

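Chemokine receptors that steer T cells to lymph node, skin, gut or inflamed tissue were compared between activated splenic T cell cultures treated with sphingosine-1-phosphate (S1P) and vehicle-treated cultures. The 8 genes described were chosen by name, as the homing receptor genes Cxcr3, Cxcr4, Cxcr6, Ccr2, Ccr4, Ccr7, Ccr8 and Ccr9, out of 56941 genes listed in the count table. Earlier results of these data were known when they were chosen. All 8 receptor genes had at least 10 counts in every library and all were tested, so none was too low to test.

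The cells came from spleens of B6 mice and were activated for 3 days on plate-bound antibodies to CD3 and CD28 with recombinant IL-2. S1P, a lipid that signals through G protein-coupled receptors, was added at 5 µM to 3 cultures 24 h into activation, and vehicle to the other 3. The labels describe naive CD8+ T cells purified before activation, and the study's culture method allows either purified naive T cells or whole splenocytes as the start. Both groups share the strain, the stimulation and the cytokine, and differ in the addition at 24 h. The labels call the 3 cultures of each group biological replicates, give neither the age nor the sex of the mice, and do not say whether animals were pooled.

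Chemokine receptors are G protein-coupled receptors with a serpentine fold that couple mainly to inhibitory G proteins, and a cell that carries one moves up the gradient of its ligand. CCR7 marks T cells that recirculate through lymph nodes, and CXCR3 marks effector cells that enter inflamed tissue. CXCR4 responds to CXCL12, a chemokine made by stroma in bone marrow and elsewhere. T cells enter a lymph node with CCR7 and leave it along a gradient of S1P, so the receptors of both systems decide how long a cell stays.

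Total counts were between 12048880 and 17384084 per library. Transcripts of the mitochondrial genome made up 7.80% of counts in S1P-treated replicate 2 and between 4.10% and 4.93% in the other 5 libraries. That replicate also stood apart from its group, with a chi-square per gene of 31.4 and 17.8 against S1P-treated replicates 1 and 3, where the other pairs within a group had 3.77 to 5.97. The labelled cell type was checked against markers. Cd8a was at 207.6, 250.6 and 207.5 CPM (a read count relative to the library total, scaled by edgeR's TMM factors) in vehicle-treated replicates 1, 2 and 3 and at 144.0, 131.9 and 142.5 CPM in S1P-treated replicates. Cd4 was at 201.4, 186.1 and 222.6 CPM in vehicle-treated and at 194.9, 254.3 and 206.2 CPM in S1P-treated replicates. Cd4 was thus below Cd8a in vehicle-treated replicates 1 and 2, and above it in vehicle-treated replicate 3 and every S1P-treated library. Per kilobase of exon, vehicle-treated libraries held Cd4 at 45.23 ± 4.084 CPM and Cd8a at 61.01 ± 6.841 CPM (SD, n = 3 each). In S1P-treated libraries these levels were 48.59 ± 7.024 and 38.35 ± 1.812 CPM (SD, n = 3 each). The 5 B cell markers summed to between 510 and 635 CPM in vehicle-treated and between 522 and 606 CPM in S1P-treated libraries. The libraries therefore hold RNA of CD4 T cells and B cells beside that of CD8+ T cells, and in such mixed RNA fewer cells of a type and less RNA per cell cannot be told apart. Neutrophil markers had at most 3 counts in each library.

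The promoters of the 2 receptor genes with the largest changes, Cxcr4 and Cxcr3, are shown because these genes moved in opposite directions, and that of Ccr4 because it shares a motif with Cxcr4 and was not past the thresholds. Each line holds the 250 bases before the start of the canonical transcript, 5′ to 3′ on the strand of the gene, read from GRCm39. Capitals mark matches, on either strand, to ACGTG (core of the hypoxia response element), CACCC (KLF or SP factors), CAGGTG (an E-box), TGACTCA (AP-1) and GGTGTGA (T-box factors). The stretches lie at chr1:128520045-128520294 (Cxcr4), chr9:114325631-114325880 (Ccr4) and chrX:100777876-100778125 (Cxcr3), all on the minus strand.
Cxcr4: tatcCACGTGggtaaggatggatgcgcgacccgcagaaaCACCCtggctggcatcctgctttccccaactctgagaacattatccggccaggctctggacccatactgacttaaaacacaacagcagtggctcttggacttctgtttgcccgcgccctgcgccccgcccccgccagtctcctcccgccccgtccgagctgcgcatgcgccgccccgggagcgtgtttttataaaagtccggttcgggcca
Ccr4: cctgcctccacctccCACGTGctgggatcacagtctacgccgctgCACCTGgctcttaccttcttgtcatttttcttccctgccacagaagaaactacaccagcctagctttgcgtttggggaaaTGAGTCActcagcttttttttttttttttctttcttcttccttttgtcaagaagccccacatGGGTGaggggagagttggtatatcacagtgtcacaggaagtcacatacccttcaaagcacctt
Cxcr3: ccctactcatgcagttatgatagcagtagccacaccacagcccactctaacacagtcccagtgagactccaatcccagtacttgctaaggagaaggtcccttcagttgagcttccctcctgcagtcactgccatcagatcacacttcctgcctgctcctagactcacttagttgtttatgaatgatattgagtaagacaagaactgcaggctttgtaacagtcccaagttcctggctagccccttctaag

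In Cxcr4 and in Ccr4 the ACGTG core lay in a CACGTG palindrome, which gives a match on both strands at the same place. Over the window from 250 bases before to 50 after the start, 2 of the 8 receptor genes held ACGTG, against 20.7% of 21770 protein-coding promoters. No receptor gene held GGTGTGA, which 3.87% of promoters held, and only Ccr4 held TGACTCA, found in 4.7% of promoters. CACCC was in 5 of the 8 receptor genes and in 58.7% of promoters, and CAGGTG in 3 of the 8 and in 20.6%. A match is a description of letters and not a binding site.

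Of the 8 receptor genes, 3 were higher and 1 lower in S1P-treated than in vehicle-treated libraries when an edgeR adjusted p up to 0.05 was required together with a log2 change of 0.3 or more in either direction, and 4 did not pass. Cxcr4 rose 3.51-fold and Cxcr3 fell by 1.49 on the log2 scale, while Ccr7 and Ccr8 rose by 0.43 and 0.59 on that scale. Over all 13299 genes tested, 23.1% passed both thresholds (12.7% higher and 10.4% lower), against 4 of 8 here. The 8 genes and the lists below were chosen with earlier results of these data known, so their shares are not independent of those results. With no limit on the fold change the share was 28.5% of all tested genes and again 4 of 8 here, and with DESeq2 in place of edgeR it was 21.4% and 3 of 8. The median log2 fold change of the 8 genes was 0.35, and that of all tested genes was 0.01. Only Cxcr4 and Cxcr3 also passed a log2 fold change of 1 in size, which 3.5% of all tested genes did. Without vehicle-treated replicate 1 or 3, or S1P-treated replicate 1 or 3, the count of receptor genes past both thresholds was 2, with Cxcr4 higher and Cxcr3 lower each time, while between 2115 and 3222 of the 13299 tested genes passed in these 4 fits. It was 4 without vehicle-treated replicate 2, where 2447 genes passed, and 6 without S1P-treated replicate 2, where 2835 did.

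**Figure D1:**
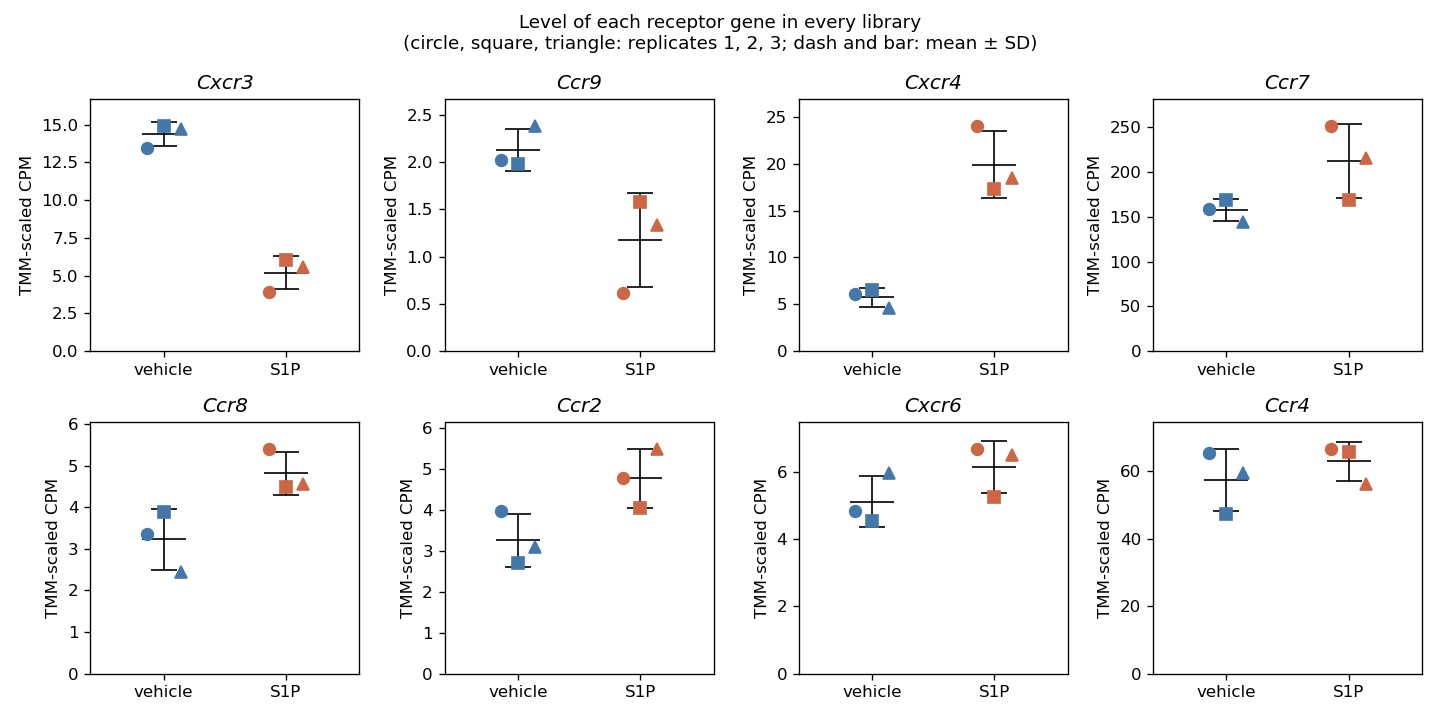
TMM-scaled CPM (vertical axis, from 0) of the 8 receptor genes in vehicle-treated (blue) and S1P-treated (orange) libraries, with replicates 1, 2 and 3 as circle, square and triangle and the mean ± SD of 3 libraries in black. The groups lie apart for Cxcr3, Ccr9, Cxcr4, Ccr8 and Ccr2 and overlap for Ccr7, Cxcr6 and Ccr4.

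The groups of scaled values did not overlap for 5 of the 8 receptor genes, S1P-treated libraries lying above for Cxcr4, Ccr8 and Ccr2 and below for Cxcr3 and Ccr9. Among all tested genes the share whose groups lay apart was 45.6%. The plot of levels by library shows the single values behind each of these statements.

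Among receptors of lymphoid recirculation, Ccr7 (ENSMUSG00000037944, chr11:99035022-99045911, 3 exons) encodes the receptor for CCL19 and CCL21 that brings T cells into lymph nodes. Its counts were 2751, 2306 and 2246 in vehicle-treated replicates 1, 2 and 3 and 4466, 1923 and 2751 in S1P-treated replicates. Scaled to library size they were 157.4 ± 12.4 CPM (SD, n = 3) and 212.0 ± 41.4 CPM (SD, n = 3). S1P-treated replicate 2, at 168.8 CPM, lay just under vehicle-treated replicate 2, at 169.1 CPM, so the groups overlapped. The log2 fold change was 0.43 (standard error, SE, 0.12, edgeR adjusted p = 0.0199). The call was lost without vehicle-treated replicate 1 (0.44, edgeR adjusted p = 0.0639), vehicle-treated replicate 3 (0.37, edgeR adjusted p = 0.0939) or S1P-treated replicate 3 (0.41, edgeR adjusted p = 0.0757), and without S1P-treated replicate 1 the fold change was 0.29, below the threshold. Of the exon bases of Ccr7, 6.70% lie under Gm57398 on the opposite strand, and the strand setting of the counting is not given in the sources used here. Mature dendritic cells carry CCR7 too, and the 5 dendritic cell markers summed to between 4.11 and 6.0 CPM in vehicle-treated and between 7.11 and 7.54 CPM in S1P-treated libraries, with none past the thresholds. The 5 B cell markers summed to far more, between 510 and 635 CPM in vehicle-treated and between 522 and 606 CPM in S1P-treated libraries. The part of dendritic cells or of B cells in the level of Ccr7 was not tested.

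Cxcr4 (ENSMUSG00000045382, chr1:128515936-128520044, 2 exons), the receptor for CXCL12, had 106, 89 and 71 counts in vehicle-treated replicates 1, 2 and 3 and 427, 197 and 235 counts in S1P-treated replicates. After scaling, these were 5.74 ± 1.03 CPM (SD, n = 3) and 19.9 ± 3.60 CPM (SD, n = 3). The lowest S1P-treated library, at 17.3 CPM, was above the highest vehicle-treated one, at 6.53 CPM. The log2 fold change was 1.81 (SE 0.17, 95% interval 1.45 to 2.17, edgeR adjusted p = 4.04e-05). Without each library in turn it lay between 1.64 and 1.90 and stayed past both thresholds. The part of B cells, whose markers were found in every library, in the level of Cxcr4 was not tested.

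Among receptors of effector cells, Cxcr3 (ENSMUSG00000050232, chrX:100775141-100777875, 2 exons) encodes the receptor for the interferon-induced chemokines CXCL9, CXCL10 and CXCL11. It had 233, 203 and 229 counts in vehicle-treated replicates and 70, 69 and 71 counts in S1P-treated replicates 1, 2 and 3. The 3 S1P-treated counts were nearly the same although the libraries differ in depth, and scaled values were 3.94, 6.05 and 5.57 CPM. In vehicle-treated replicates they were 13.4, 14.9 and 14.7 CPM, so the groups lay far apart. The log2 fold change was -1.49 (SE 0.16, 95% interval -1.84 to -1.15, edgeR adjusted p = 8.76e-05), and between -1.62 and -1.30 without each library in turn. Cxcr3 is among the genes that the study itself picked from these samples, and its decrease is therefore not independent of that choice.

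Cxcr6 (ENSMUSG00000048521, chr9:123635534-123640825, 2 exons) encodes the receptor for CXCL16 and is carried by effector and tissue-resident T cells. Its scaled values were 4.84, 4.55 and 5.98 CPM in vehicle-treated and 6.70, 5.27 and 6.52 CPM in S1P-treated replicates. The groups overlapped, and the log2 fold change of 0.27 had a 95% interval from -0.10 to 0.64 (edgeR adjusted p = 0.253). A rise of up to 0.64 on the log2 scale is thus within the interval.

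Ccr2 (ENSMUSG00000049103, chr9:123901982-123913594, 2 exons), the receptor for CCL2 on monocytes and some effector T cells, had 69, 37 and 48 counts in vehicle-treated and 85, 46 and 70 counts in S1P-treated replicates. Scaled values were 3.26 ± 0.650 CPM (SD, n = 3) and 4.77 ± 0.729 CPM (SD, n = 3), and the groups did not overlap. The log2 fold change of 0.54 (95% interval 0.10 to 0.99) did not pass (edgeR adjusted p = 0.0666). Without S1P-treated replicate 2, the library with the high mitochondrial share, it was 0.63 and passed both thresholds (edgeR adjusted p = 0.0345). Of the 31-base stretches of its transcripts, 3.62% occur in other genes. Of the 6 markers of monocytes and macrophages, Lyz2 and Cd14 had at most 3 counts in every library and Csf1r, Itgam and Adgre1 at most 8. Ly6c2, which activated CD8+ T cells also carry, had 519 to 958 counts and was lower after S1P (log2 fold change -0.47, edgeR adjusted p = 0.00959). The 6 markers summed to between 51.7 and 70.9 CPM in vehicle-treated and between 41.2 and 46.8 CPM in S1P-treated libraries, and their part in the level of Ccr2 was not tested.

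**Figure D2:**
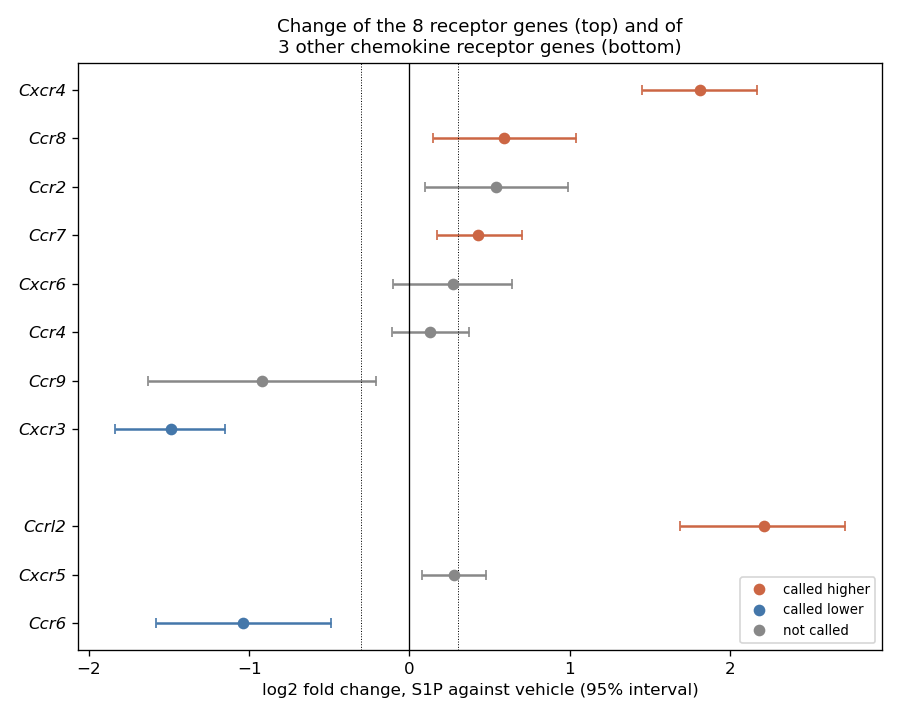
Log2 fold change of S1P-treated against vehicle-treated libraries (horizontal axis) with its 95% interval for the 8 receptor genes and 3 other chemokine receptor genes; dotted lines mark 0.3 in size and colours the call. Cxcr4 at 1.81 and Cxcr3 at -1.49 lie at the ends of the 8, and Ccrl2 at 2.21 lies beyond Cxcr4.

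Among receptors of skin-homing, helper and regulatory T cells, Ccr4 (ENSMUSG00000047898, chr9:114319384-114333984), the receptor for CCL17 and CCL22, stood at 65.2, 47.3 and 59.5 CPM in vehicle-treated and at 66.6, 65.7 and 56.3 CPM in S1P-treated replicates. The groups overlapped, and the log2 fold change was 0.13 (95% interval -0.11 to 0.37, edgeR adjusted p = 0.412). Without each library in turn the log2 fold change of Ccr4 lay between 0.01 and 0.23 and did not pass.

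Ccr8 (ENSMUSG00000042262, chr9:119921180-119924263, 2 exons), the receptor for CCL1 and a marker of regulatory T cells in tumors, had 58, 53 and 38 counts in vehicle-treated and 96, 51 and 58 counts in S1P-treated replicates. Scaled values were 3.34, 3.89 and 2.44 CPM against 5.40, 4.48 and 4.55 CPM, and the groups did not overlap. Its log2 fold change of 0.59 (SE 0.20) passed narrowly (edgeR adjusted p = 0.0486). The call was lost with DESeq2 (0.58, adjusted p = 0.0801) and without vehicle-treated replicate 1 (0.62), vehicle-treated replicate 3 (0.43), S1P-treated replicate 1 (0.49) or S1P-treated replicate 3 (0.63), where the edgeR adjusted p was 0.105, 0.183, 0.136 and 0.0875. Foxp3, the defining gene of regulatory T cells, was at 8.08 ± 0.463 CPM (SD, n = 3) in vehicle-treated and 8.33 ± 2.29 CPM (SD, n = 3) in S1P-treated libraries. Ikzf4, the other marker of these cells on the list, was higher (log2 fold change 0.44, edgeR adjusted p = 0.00755) with no overlap between the groups. Both markers summed to between 25.1 and 28.9 CPM in vehicle-treated and between 31.1 and 39.2 CPM in S1P-treated libraries, and their part in the level of Ccr8 was not tested.

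Ccr9 (ENSMUSG00000029530, chr9:123507181-123613395), the receptor for CCL25 that sends T cells to the small intestine, was the lowest of the 8. It had 35, 27 and 37 counts in vehicle-treated and 11, 18 and 17 counts in S1P-treated replicates. Scaled values were 2.13 ± 0.220 CPM (SD, n = 3) and 1.18 ± 0.499 CPM (SD, n = 3), and the groups did not overlap. The log2 fold change of -0.92 had a 95% interval from -1.63 to -0.21 and did not pass (edgeR adjusted p = 0.0537). It passed in 5 of 8 other settings (total count scaling, no filter, at least 10 counts in every sample, limma-voom and the replicate block), with adjusted p from 0.0241 to 0.088 over the 8. It was -1.19 without S1P-treated replicate 2 and then passed (edgeR adjusted p = 0.020), and it was -0.55 without S1P-treated replicate 1. Of its exon bases, 5.59% lie under Gm17200 on the same strand and 22.4% under genes of the opposite strand. Whether reads of the latter were kept apart depends on the strand setting of the counting.

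Compared per length, as CPM per kilobase of exon, the levels kept Ccr7 first, at 79.2 ± 6.25 (SD, n = 3) in vehicle-treated and 107 ± 20.9 (SD, n = 3) in S1P-treated libraries. Ccr4 came second, at 18.5 ± 2.96 and 20.3 ± 1.85. The third place went from Cxcr3, at 8.29 ± 0.461 in vehicle-treated libraries, to Cxcr4, at 10.9 ± 1.98 in S1P-treated libraries. In vehicle-treated libraries Cxcr4 (3.15), Cxcr6 (2.64) and Ccr8 (2.20) followed, and neighbours in that order overlapped. In S1P-treated libraries Ccr8 (3.28), Cxcr6 (3.18) and Cxcr3 (3.00) followed and overlapped in the same way. Ccr2 and Ccr9 stood last in both groups. The order was the same with the length of the canonical transcript in place of all exons, an alternative chosen after the data were seen.

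**Figure D3:**
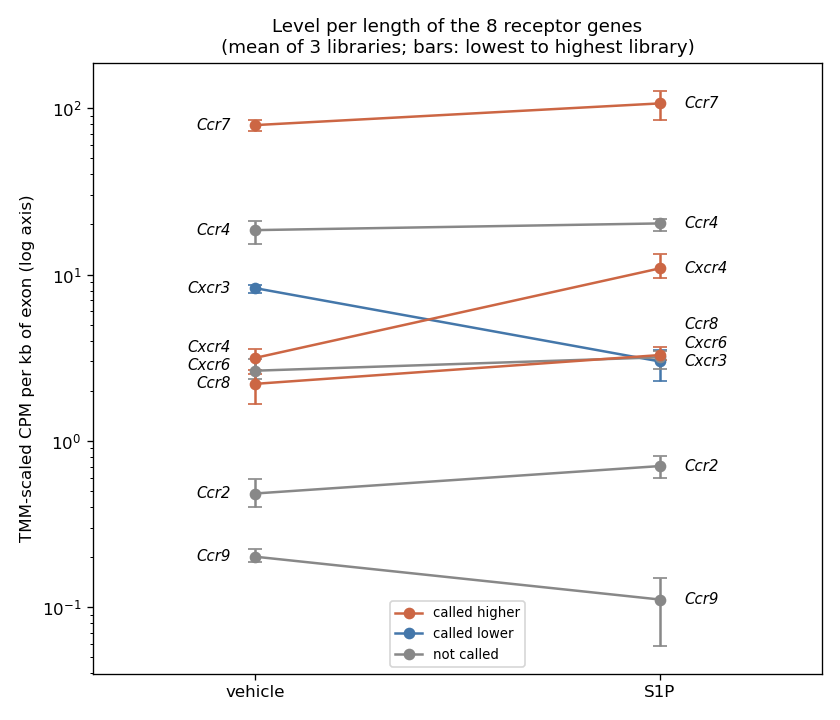
TMM-scaled CPM per kilobase of exon (vertical log axis) for the 8 receptor genes in vehicle-treated and S1P-treated libraries, as the mean of 3 libraries with bars from the lowest to the highest. Cxcr3 goes from 8.29 to 3.00 and Cxcr4 from 3.15 to 10.9, and their lines cross between the groups.

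The ratio of Cxcr4 to Cxcr3, taken within each library on the per-length scale, was 0.432, 0.417 and 0.295 in vehicle-treated replicates and 5.80, 2.71 and 3.14 in S1P-treated replicates. Every vehicle-treated library thus held more Cxcr3 than Cxcr4 per length, and every S1P-treated library more Cxcr4. S1P-treated replicate 1 had the highest ratio. The summed per-length level of the 8 genes was 115 ± 5.51 (SD, n = 3) in vehicle-treated and 148 ± 22.9 (SD, n = 3) in S1P-treated libraries. Ccr7 alone made up 69.0% ± 2.66 (SD, n = 3) and 71.7% ± 3.54 (SD, n = 3) of that sum. Cxcr3 went from 7.24% ± 0.625 (SD, n = 3) to 2.10% ± 0.731 (SD, n = 3), and Cxcr4 from 2.73% ± 0.374 (SD, n = 3) to 7.37% ± 0.447 (SD, n = 3).

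Since the libraries hold RNA of several cell types, the 8 genes were also set against markers within each library. Cd8a was lower after S1P by 0.67 and Cd8b1 by 0.55 on the log2 scale (log2 fold changes -0.67 and -0.55, edgeR adjusted p = 0.000243 and 0.00767), and for both genes every S1P-treated library lay below every vehicle-treated one. Without vehicle-treated replicate 2 the log2 fold change of Cd8b1 was -0.36 (edgeR adjusted p = 0.0185). The remaining genes on the CD8 T cell list did not pass both thresholds. Their log2 fold changes were -0.28 (Cd3d), -0.21 (Cd3g), -0.30 (Thy1) and 0.15 (Cd3e). For Cd4 the log2 fold change came to 0.10 (95% interval -0.12 to 0.32, edgeR adjusted p = 0.487), and without S1P-treated replicate 2 it was -0.02. Zbtb7b, the other marker of CD4 T cells on the list, was higher (log2 fold change 0.37, edgeR adjusted p = 0.00886) with no overlap between the groups. Of the 5 B cell markers, Ms4a1 was lower (log2 fold change -0.39, edgeR adjusted p = 0.00889), without passing when vehicle-treated replicate 1 or 3 was left out (edgeR adjusted p = 0.0523 and 0.0517). The other 4 did not pass, among them Pax5 with a log2 fold change of 0.33 (95% interval 0.06 to 0.61, edgeR adjusted p = 0.0699), whose groups did not overlap. Relative to the sum of Cd8a and Cd8b1, Cxcr3 was lower by 0.87 (a log2 difference of -0.87) with no overlap between the groups. Relative to Cd4 its log2 difference was -1.59 and relative to the B cell markers -1.42. Cxcr4 was higher by 2.42, 1.70 and 1.86 relative to these 3 references, again with no overlap.

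Cd8a and Cd8b1 themselves fell (log2 fold changes -0.67 and -0.55), so a gene with an unchanged level lies above 0 relative to them. A difference relative to them is therefore not a change per CD8+ T cell. Ccr7 was higher by 1.03 relative to Cd8a and Cd8b1, without overlap, and by 0.32 relative to Cd4 and 0.48 relative to the B cell markers, with overlap. Ccr8 was higher by 1.22 relative to Cd8a and Cd8b1, without overlap, and had log2 differences of 0.50 and 0.66 relative to Cd4 and the B cell markers, with overlap. Ccr4 and Cxcr6, which did not pass in the test on all counts, had log2 differences of 0.76 and 0.89 relative to Cd8a and Cd8b1, without overlap, and of 0.04 and 0.17 relative to Cd4, with overlap. Relative to the B cell markers Ccr4 and Cxcr6 had 0.21 and 0.33, with overlap. Ccr9 had a log2 difference of -0.33 relative to Cd8a and Cd8b1, with overlap. Relative to Cd4 and the B cell markers Ccr9 had -1.05 and -0.89, without overlap. For Ccr2 the log2 difference was 1.18 relative to Cd8a and Cd8b1 and 0.62 relative to the B cell markers, without overlap. Relative to Cd4 that of Ccr2 was 0.46, with overlap. Which cells in the cultures carry each receptor was not tested.

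**Figure D4:**
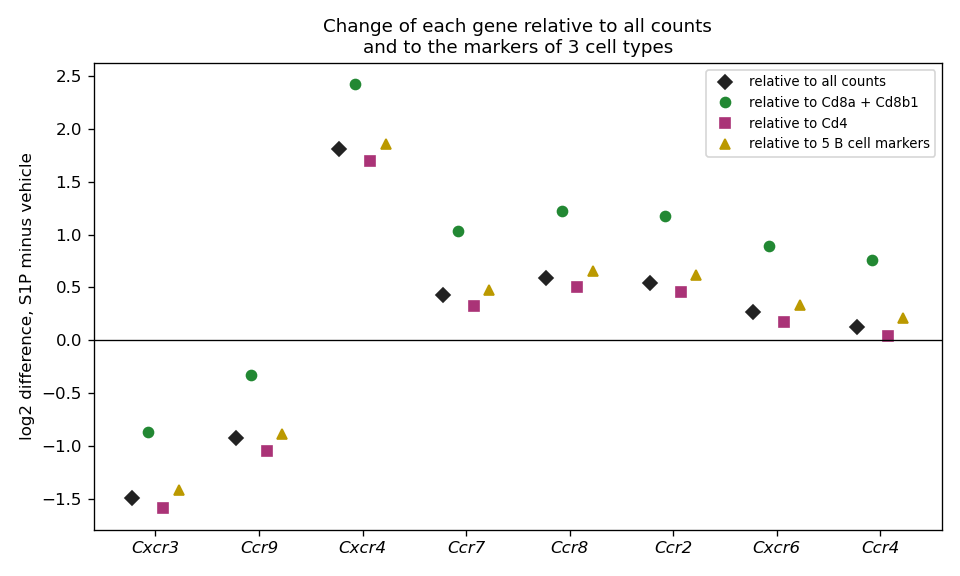
Log2 difference between S1P-treated and vehicle-treated libraries (vertical axis) of each receptor gene relative to all counts (diamond, the fitted log2 fold change), to Cd8a and Cd8b1 (circle), to Cd4 (square) and to 5 B cell markers (triangle). Cxcr3 lies below 0 and Cxcr4 above 0 with every reference, from -1.59 to -0.87 and from 1.70 to 2.42.

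Of 14 other chemokine receptor genes, 3 had enough counts for a test, and 1 was higher and 1 lower. Those past both thresholds made up 66.7% of the 3 tested, against 23.1% of all tested genes. Ccrl2, an atypical receptor that binds chemerin and does not signal migration, went from 1.85 ± 0.245 to 8.49 ± 2.41 CPM (SD, n = 3 each), a difference of 2.21 ± 0.23 on the log2 scale (SE, edgeR adjusted p = 9.15e-05). Ccr6, the receptor for CCL20, went from 3.36 ± 0.700 to 1.62 ± 0.325 CPM (SD, n = 3 each), a difference of -1.04 ± 0.25 on the log2 scale (SE, edgeR adjusted p = 0.00972). Cxcr5, the receptor for CXCL13 on B cells and follicular T cells, passed the adjusted p at a log2 fold change of 0.28, under the threshold.

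Of the 8 receptor genes, 5 lie on chromosome 9, and the log2 fold changes of Ccr4, Ccr8, Cxcr6 and Ccr2 there were above 0 and that of Ccr9 below 0. Ccr9 ends 22.1 kb before Cxcr6, and their log2 fold changes were -0.92 and 0.27. Neither passed the thresholds with all libraries, and the interval of Cxcr6 includes 0. The ratio of Ccr9 to Cxcr6 on the per-length scale was 0.0763, 0.0797 and 0.0728 in vehicle-treated and 0.0169, 0.0549 and 0.0375 in S1P-treated replicates, with no overlap.

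Of 15 genes for the ligands of these receptors, 6 were tested, 2 were higher and 1 was lower. The share past both thresholds was 50% of the 6 tested, against 23.1% of all tested genes. Cxcl10, a ligand of CXCR3, went from 2.65 ± 0.143 to 8.35 ± 1.54 CPM (SD, n = 3 each), a difference of 1.66 ± 0.18 on the log2 scale (SE, edgeR adjusted p = 0.000116). Cxcl11, another ligand of CXCR3, had a difference of 2.51 ± 0.35 on the log2 scale (SE, edgeR adjusted p = 0.000491) at 12, 9 and 3 counts in vehicle-treated and 47, 33 and 44 counts in S1P-treated replicates. Cxcl9, the remaining CXCR3 ligand, had one of 0.71 and did not pass (edgeR adjusted p = 0.161). The transcripts of Cxcl10 and Cxcl11 thus rose in the libraries in which that of Cxcr3 fell. Whether the cells made a functional protein from either ligand gene was not tested. For Ccl1, the ligand of CCR8, the log2 fold change came to -1.04 (edgeR adjusted p = 0.0365). It lost the call with DESeq2 (adjusted p = 0.0684), with the replicate number as a block (edgeR adjusted p = 0.0501) and without vehicle-treated replicate 1 or 3 or S1P-treated replicate 1 or 3 (edgeR adjusted p up to 0.126). Cxcl11 and Ccl1 were below the level set for named genes and were named after their values were seen.

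All 16 genes of homing adhesion were tested, with 3 higher, 2 lower and a median log2 fold change of -0.04. Thus 31.2% of this list passed both thresholds, against 23.1% of all tested genes. The higher ones were Cd69 (0.34), which holds S1PR1 inside the cell, S1pr1 (0.34) and the hyaluronan receptor gene Cd44 (0.32). Itga4 (-0.42), the shared chain of the integrins that bind gut and inflamed endothelium, and Itgal (-0.35), the chain of LFA-1, were lower. S1pr1 lost its call without any one of the 6 libraries (edgeR adjusted p from 0.055 to 0.137) and with DESeq2 (adjusted p = 0.0979), total count scaling or no filter, Cd69 without vehicle-treated replicate 2 (0.29) and Cd44 without vehicle-treated replicate 2 or S1P-treated replicate 2 (down to 0.28). Itga4 and Itgal kept theirs in all 6 of these fits.

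Of 23 genes that carry or end the signal of chemokine receptors, 22 were tested, 3 higher and 3 lower, with a median log2 fold change of -0.06. This is 27.3% of those tested, close to the 23.1% of all tested genes that passed. Arrb1, which encodes β-arrestin that uncouples and internalises these receptors, went from 42.9 ± 13.5 to 134.5 ± 21.6 CPM (SD, n = 3 each), a difference of 1.66 ± 0.18 on the log2 scale (SE, edgeR adjusted p = 0.000108). Pik3cg (0.40), the PI3-kinase driven by G proteins, and Gng2 (0.36), a G protein subunit, were higher. Coro1a (-0.44), an actin regulator, Grk6 (-0.42), a kinase that desensitises receptors, and Rac2 (-0.38), a GTPase of cell movement, were lower. Pik3cg lost its call without S1P-treated replicate 1 (0.29). Coro1a lost it without any one of the 3 vehicle-treated replicates (edgeR adjusted p up to 0.0798) or without S1P-treated replicate 2, where its log2 fold change was -0.27.

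Of 22 regulators of homing genes, 20 were tested, 9 higher and 3 lower, with a median log2 fold change of 0.29. In all, 60% of the 20 passed both thresholds, against 23.1% of all tested genes (12.7% higher and 10.4% lower). The list was chosen with earlier results of these data known, so this share is not independent of them. The counts of regulators were 7 and 2 when S1P-treated replicate 2 was left out, where 2835 of the 13299 tested genes passed. The largest changes upward were those of Rora (2.13), a nuclear receptor gene, Rara (0.79), the retinoic acid receptor gene, and Gata3 (0.63), the factor of type 2 helper cells. Satb1 (0.56), Zeb2 (0.54) and Runx3 (0.54) were also higher, as were Id2 (0.37), Hif1a (0.36) and Lef1 (0.31), the last 3 named after their values were seen. Lef1, a partner of the Tcf7 product, lost its call without vehicle-treated replicate 2 (0.33) or 3 (0.26) or S1P-treated replicate 2 (0.22), and Hif1a fell just under the fold limit without the latter. With total count scaling (0.28) or no filter on low counts (0.27) Lef1 did not pass either. Id3 (-1.01), Eomes (-0.86) and Tcf7 (-0.33) were lower, Tcf7 without passing when S1P-treated replicate 2 was left out (-0.29). The study picked these 3 lower genes, and Id2, from the same samples. Bach2 (-0.08), Bcl6 (0.12) and Klf2 (0.14) did not pass. Tbx21, which encodes T-bet, a factor known to drive Cxcr3, differed by -0.17 on the log2 scale (95% interval -0.34 to -0.01, edgeR adjusted p = 0.102). It went from 80.2 ± 4.82 to 71.1 ± 4.24 CPM (SD, n = 3 each), and its part in the level of Cxcr3 was not tested.

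For each receptor gene past the thresholds, the genes with the most similar profile among those with a mean log2 CPM of 3 or more over the 6 libraries were found by the root mean square distance of log2 CPM. They were Ccl3, Xcl1 and Chst2 for Cxcr3 (distances 0.180 to 0.220) and Gys1, Rasa4 and Jag2 for Cxcr4 (0.085 to 0.133). For Ccr7 they included Pgk1 and Map2k1 (0.047 and 0.057), and for Ccr8 they were Nlgn2, Jmy and Scd2 (0.051 to 0.083). With 2 groups of 3 libraries, any gene that changed by a like amount is close, and none of these genes was among the nearest 3 by Pearson correlation.

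**Figure D5:**
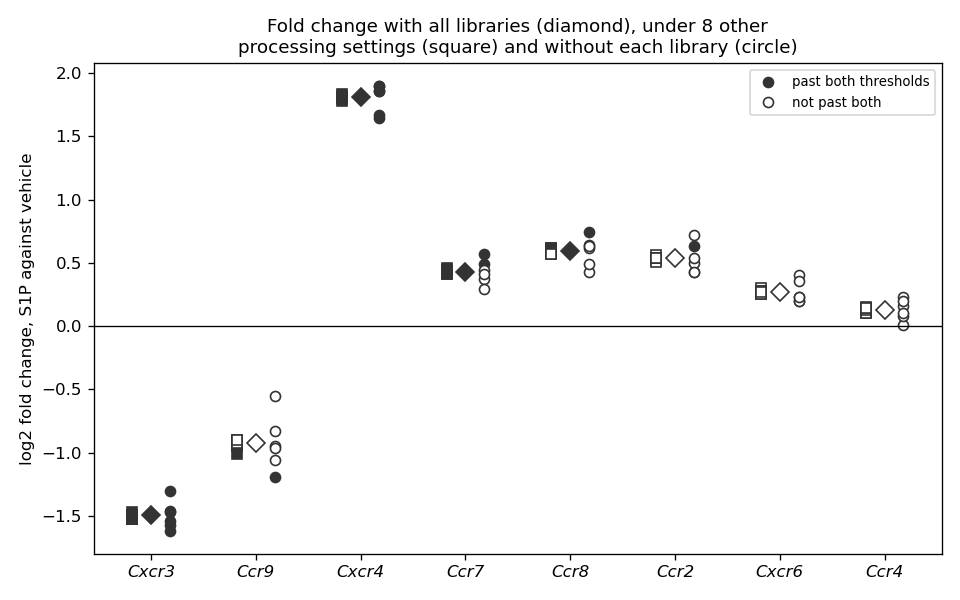
Log2 fold change (vertical axis) of each receptor gene with all libraries (diamond), under 8 other processing settings (square) and without each of the 6 libraries (circle); filled symbols are past both thresholds. Cxcr3 and Cxcr4 are filled throughout, Ccr7 and Ccr8 turn open without some libraries, and no gene crosses 0.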

How the data were processed

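RNA-seq counts of 3 S1P-treated and 3 vehicle-treated samples were analysed. The authors made strand-specific paired-end libraries of polyadenylated RNA, used Trim Galore for trimming, STAR for alignment and featureCounts for gene counts (build GRCm39 in the submitters' processing notes; annotation release and strand setting not given in the sources used here). The deposited values are raw whole-number counts for 56941 Ensembl identifiers, of which 56323 had a symbol in GENCODE vM39.

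Counts of 13299 genes kept by edgeR's filterByExpr received TMM scaling, and the quasi-likelihood F test of edgeR 4.0.16 (in R 4.3.3, beside limma 3.58.1) was run with treatment as the only term. P-values were adjusted by Benjamini-Hochberg across these genes. Both thresholds follow the study: adjusted p up to 0.05, and at least 0.3 in log2 fold change, up or down. Standard errors were derived from the F statistic, and intervals cover 95%. Alternatives were DESeq2 1.42.0, limma-voom, RLE, upper-quartile and total count scaling, other filters and thresholds, the replicate number as a block, and the fit without each library. The receptor genes and gene lists were chosen with earlier results of these data known. Some genes are not reported here. From each list the text names genes past both thresholds whose log2 CPM averaged 1 or more, up to 6 in each direction. Depth limits the precision of the receptor genes with fewest counts, and p-values measure the spread between the 3 cultures of a group. The deviations of same-numbered samples from their group means had correlations of 0.12, -0.00598 and 0.0483, so the numbers were not taken as pairs. No replicate pair was a duplicate (chi-square per gene of at least 3.77). The models were tested on simulated counts of 13084 genes. There edgeR recovered 96 of 100 genes changed by 1 and 67 of 100 changed by 0.5 on the log2 scale. It also made 8 false calls. Recovery at counts as low as those of Ccr2, Ccr8 and Ccr9 was not tested separately. Nor was recovery with a library that stood apart like S1P-treated replicate 2.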

Additional observations from a re-analysis of the deposited data

How the results depend on the processing

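Each of the 8 receptor genes was fitted again under 8 other settings and without each of the 6 libraries, and none of the 112 recomputed fold changes turned its direction. Cxcr3 and Cxcr4 stayed past both thresholds in all of these fits, with log2 fold changes from -1.62 to -1.30 and from 1.64 to 1.90, and Cxcr6 and Ccr4 did not pass in any. Without each library in turn, the count of receptor genes past both thresholds lay between 2 and 6 of 8 (between 2115 and 3222 of 13299 over all genes), and the log2 fold change between 0.29 and 0.57 for Ccr7, 0.43 and 0.74 for Ccr8, 0.43 and 0.72 for Ccr2 and -1.19 and -0.55 for Ccr9. Ccr8 did not pass with DESeq2 (0.58), total count scaling (0.57) or no filter on low counts (0.57). Ccr9 passed with total count scaling (-0.95), no filter (-0.95), at least 10 counts in every sample (-0.92), limma-voom (-1.01) and the replicate block (-0.93, edgeR adjusted p = 0.0492). The replicate block changed no other call of the 8 genes, Ccl1 lost its call with it (-1.05), and 3120 genes passed in all with it, against 3071 without. Requiring a log2 change of 1 in either direction left 465 genes in all, 2 receptor genes, 2 regulators, 1 signalling gene and 0 of the 16 adhesion genes, while the 2 other receptor genes and 3 ligand genes past the thresholds all stayed. That count of adhesion genes was also 0 with DESeq2, with limma-voom and at an unadjusted p under 0.05 in edgeR. Of the adhesion genes, 5 passed with all libraries, 3 with total count scaling, 8 with no limit on the fold change and between 3 and 5 without each library. Over all 13299 tested genes these counts were 3071, 3009, 3788 and between 2115 and 3222. Cd4 turned direction without S1P-treated replicate 2 (-0.02) and lay between -0.02 and 0.18 over the 6 fits. The cause of these shifts was not tested. With no filter on low counts the median log2 fold change of all genes moved to 0.16. Receptor genes with under 100 counts per library, among them Ccr2, Ccr8 and Ccr9, had standard errors of 0.20 to 0.32, against 0.11 for Ccr4.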

Other observations

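Some chemokine receptor genes had too few counts for a test. Cx3cr1, a marker of cytotoxic effector cells, had 6, 7 and 6 counts in vehicle-treated and 8, 7 and 10 counts in S1P-treated replicates 1, 2 and 3. Ccr1, a receptor of myeloid cells, had 15, 2 and 8 counts in vehicle-treated and 7, 7 and 10 counts in S1P-treated replicates. Cxcl16, the ligand of CXCR6, had 9, 8 and 16 counts in vehicle-treated and 4, 6 and 11 counts in S1P-treated replicates, with overlap between the groups. Ccl19 and Ccl21a, the ligands of CCR7, had 0 counts in all 6 libraries. For a library taken alone, 0 counts allow up to 3 from counting error. Sequence that these ligand genes may share with other genes was not examined.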
